A study of Homo sapiens with 2 samples.

Results

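The genes described here are 39 genes of the cell death machinery, made up of the BCL2 family, caspases, inhibitor of apoptosis proteins (IAPs), and death receptors with their adaptors. The list was set by gene symbol, and the members were found on the arrays as the 63 probes whose RefSeq accession belongs to a listed symbol. All 39 members had at least 1 probe that was measured above background, among 16153 named genes with such a probe. By their usual roles, 26 members promote cell death, 10 oppose it, and 3 (CASP1, CASP4 and RIPK1) were put on neither side.

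RNA came from SKOV3 cells, a human ovarian adenocarcinoma line. The cl-sh3 clone carried a RUNX2 shRNA in the lentiviral pLKO.1-puro vector and the control clone carried the same vector with a scramble sequence, and both were selected with puromycin. Each group is 1 clone, so an effect of the knockdown and a difference between clones of SKOV3 cannot be told apart. The RNAs of cl-sh3 and control were hybridized together on 2-colour Agilent whole human genome arrays, with cl-sh3 in Cy5 in hybridization 1 and in Cy3 in hybridization 2. The 2 hybridizations repeat the same pair of RNAs, count as 1 replicate, and allow no p-value. Values below are log2 ratios of cl-sh3 over control, given for hybridization 1 and hybridization 2, or signals in arbitrary units after normalization. A gene with several probes is represented by its brightest measured probe unless another probe is named.

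Apoptosis runs along a mitochondrial and a death receptor pathway. In the mitochondrial pathway, BH3-only proteins bind pro-survival BCL2 proteins or the effectors BAX, BAK1 and BOK, the effectors open the outer membrane, and released cytochrome c joins APAF1 to activate caspase-9. In the death receptor pathway, ligands such as TRAIL bind receptors that recruit FADD and caspase-8, and IAPs and CFLAR restrain the caspases.

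The targeted gene was lower in the library labelled cl-sh3, since the brightest RUNX2 probe gave -2.04 and -1.30, while the dimmer RUNX2 probes gave 0.17 and -0.13, and -0.29 and -0.17. All 6 epithelial markers of SKOV3 were detected, with 5 of them (EPCAM, KRT7, KRT8, KRT18 and KRT19) higher in cl-sh3 beyond the technical spread described below and ERBB2 lower on its brightest probe (-0.86 and -0.45, against 0.26 and 0.18 on the other). The median of the 6 was 0.46, and their part in the results below was not tested. The 5 leukocyte and 3 endothelial markers also passed the detection flag, with mean ratios from -0.02 to 0.14 and from -0.15 to 0.18, so the flag alone does not show that a gene is expressed. Between 76.6% and 93.7% of probes were well above background in each RNA and hybridization.

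None of the 39 members differed at least 2-fold in both hybridizations on its brightest probe, a size reached by 0.656% of all named genes. No other kept member probe did so with this processing, and BCL2L1 under other processing is given below. At 1.5-fold in both hybridizations, BAX, BBC3 and BCL2 were higher in cl-sh3, against 1.6% of all genes, and BMF and PMAIP1 were lower, against 2.61%. A second threshold came from the technical error. For 95% of the kept probes, either hybridization lay within 0.31 of the mean of both. With the same sign in both hybridizations and a mean beyond 0.31, BAX, BBC3, BCL2, BIRC3, CASP8 and FADD were higher, 6 of 39 members against 10.3% of all genes. BCL2L11, BIRC2, BMF and PMAIP1 were lower, 4 of 39 members against 13% of all genes. CASP8, with a mean of 0.31, sat at this threshold, and its mean was 0.28 with flagged spots kept and 0.29 without background correction. Signals that did not overlap between the clones were common. For 11 of the 39 members both cl-sh3 signals were above both control signals, beside 21.8% of all genes, and for 12 both were below, beside 22.4%. The members called were few, and with 1 replicate their shares are a description. The plot of members by role shows each member in both hybridizations.

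**Figure D1:**
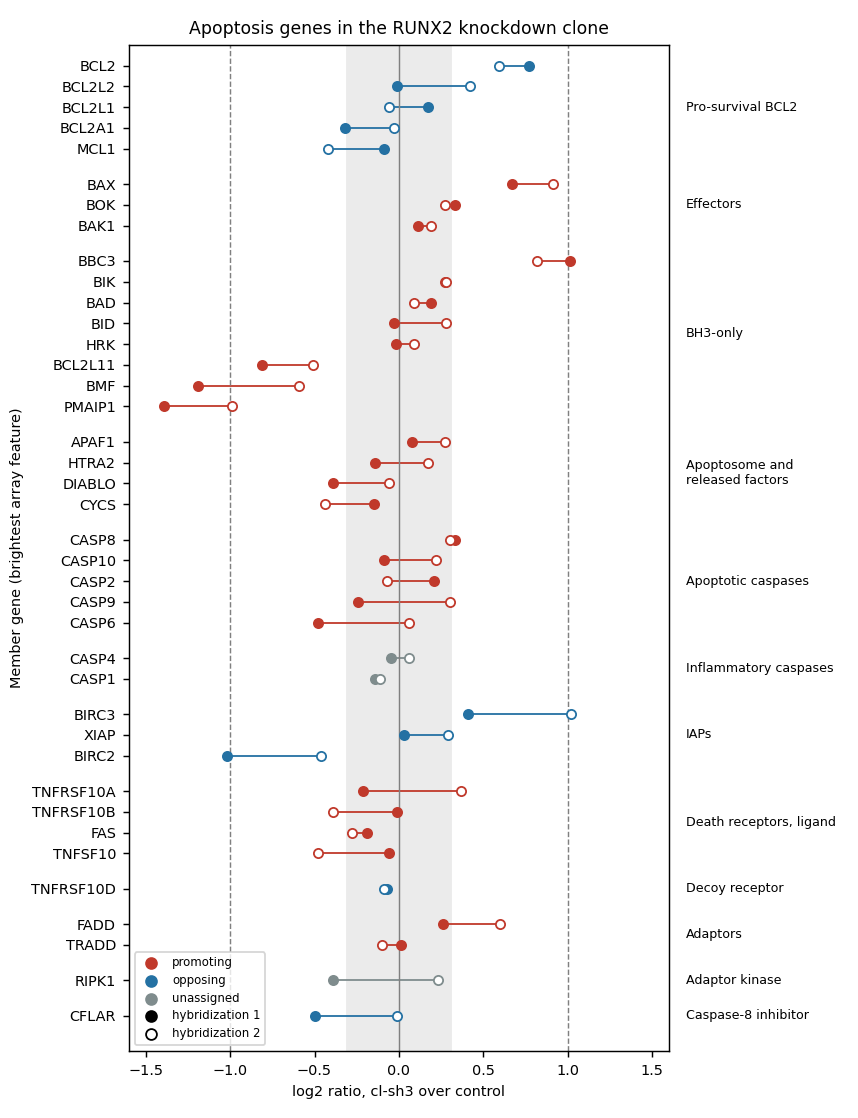
The log2 ratio of cl-sh3 over control (x axis) of the brightest probe of each of the 39 members (y axis, grouped by role), with hybridization 1 filled, hybridization 2 open, and colours for promoting, opposing and unassigned members. The grey band spans 0.31 either side of 0 and the dashed lines mark a 2-fold difference. PMAIP1 has the lowest and BBC3 the highest mean of both hybridizations.

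For 3 members named by the arrays or by the study, the sequence before the transcription start is given. The 3 members and the motif marked in each were chosen after values were seen. RUNX2 binds DNA itself, and the stress factor ATF4 acts on members such as PMAIP1. A part of either factor in the values was not tested. PMAIP1 had the lowest ratio of all members, BAX was higher on both of its probes, and BCL2L1 had its higher ratio on a probe designed on another transcript variant. Each sequence is the 250 bases up to the start in RefSeq for GRCh38.p14, read along the gene. Capitals mark TGACG or its reverse complement CGTCA (the core of the cyclic AMP response element, CRE) for PMAIP1, and a RUNX core (ACCACA or ACCGCA, or their reverse complements TGTGGT and TGCGGT) for BAX and BCL2L1. The PMAIP1 stretch is chr18:59899746-59899995 on the plus strand, the BAX stretch is chr19:48954625-48954874 on the plus strand, and the BCL2L1 stretch is chr20:31723964-31724213 on the minus strand, before the first of its 2 starts in the table.
PMAIP1: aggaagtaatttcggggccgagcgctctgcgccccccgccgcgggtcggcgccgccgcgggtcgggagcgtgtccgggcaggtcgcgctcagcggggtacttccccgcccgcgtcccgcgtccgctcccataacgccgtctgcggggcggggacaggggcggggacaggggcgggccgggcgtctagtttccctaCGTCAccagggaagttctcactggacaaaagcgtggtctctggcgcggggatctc
BAX: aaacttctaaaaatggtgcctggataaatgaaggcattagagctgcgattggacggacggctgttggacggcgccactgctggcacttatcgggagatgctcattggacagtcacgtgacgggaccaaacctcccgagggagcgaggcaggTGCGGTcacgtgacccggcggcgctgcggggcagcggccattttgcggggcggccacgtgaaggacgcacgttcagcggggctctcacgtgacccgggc
BCL2L1: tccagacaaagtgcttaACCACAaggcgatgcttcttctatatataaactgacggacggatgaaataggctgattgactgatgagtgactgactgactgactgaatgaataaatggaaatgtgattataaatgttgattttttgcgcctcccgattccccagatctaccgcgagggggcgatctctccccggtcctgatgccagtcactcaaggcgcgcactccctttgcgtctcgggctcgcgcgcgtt
The CGTCA of PMAIP1 begins at position -55, the TGCGGT of BAX at -99 and the ACCACA of BCL2L1 at -233, counted from the start. The BAX and BCL2L1 stretches also hold TGACG, in lower case, at -134 and -201. These are matches of letters, and no binding was measured.

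The RefSeq promoter table held 30 of the 39 members, with 55 windows that run from 250 bases before to 50 bases after a start. The RUNX core was found on either strand in 13 of the 55 windows (23.6%), beside 19.6% of the 35116 windows of all genes. The CRE core was found in 17 member windows (30.9%), beside 24.6% of all windows. The element shared by ATF4 and C/EBP proteins, TGATGNAA on either strand, was found in 2 member windows (3.64%), those of BCL2A1 and HRK, beside 3.62% of all windows. The 3 motifs share no letters that would make a match of any of them a match of another. Counted by gene, 11 of the 30 members held a RUNX core in at least 1 window, beside 22.9% of 27305 genes. The CRE core was held by 14 of the 30, beside 28.4% of genes, and the element of ATF4 and C/EBP by 2, beside 4.46%. A gene with several windows had more chances of a match. Among the members beyond the technical spread, BAX, BCL2, BIRC3, CASP8 and FADD (higher) and BIRC2 and BMF (lower) held a RUNX core in a window. BBC3 (higher on its brightest probe) and PMAIP1 and BCL2L11 (lower) did not. A link between the core and the direction was not tested. The windows of BIRC2 and BIRC3 held both the RUNX and the CRE core. The members not in the table were TNFRSF10A, BCL2L2, CASP1, TNFRSF10D, CASP10, TRADD, BIK, MCL1 and TNFRSF10B.

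The pro-survival BCL2 proteins, which hold the effectors in check, had a median mean ratio of 0.05 over 5 members. BCL2, the founding member of the family, gave signals of 340.5 in cl-sh3 and 199.9 in control in hybridization 1, and of 343.8 and 228.4 in hybridization 2. Its ratios were 0.77 and 0.59, a mean of 1.6-fold, and both cl-sh3 signals were above both control signals. The BCL2 probe was dim, and since the detection flag alone does not show expression, whether BCL2 is expressed was not settled. Its mean ratio ranged from 0.56 without background correction to 1.07 with the ratios of the scanner software.

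BCL2L1, which encodes the pro-survival BCL-XL and the pro-apoptotic BCL-XS by splicing, gave different values on its 2 probes. The brighter probe, designed on NM_138578, gave signals of 2114 in cl-sh3 and 1881 in control, then 1800 and 1883, with ratios of 0.17 and -0.06. The other probe, designed on NM_001191, gave 381.5 and 198.1, then 351.4 and 167.4, with ratios of 0.95 and 1.07. The first probe showed no difference with the same sign in both hybridizations, while the second was higher in cl-sh3 in both, by a mean of 2.01-fold. The second probe was dim, with the control well above background in 1 of the 2 hybridizations, and its mean ratio was 0.76 without background correction and 1.46 with the ratios of the scanner software. NM_001191 is the accession under which the study lists BCL2L1. Which splice form either probe detects was not tested, since the files used here hold no probe sequences.

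MCL1, a short-lived pro-survival protein, gave -0.09 and -0.42 on its brightest probe, and its other probes gave -0.17 and -0.50, and -0.04 and 0.13. BCL2A1 gave -0.32 and -0.03 on its measured probe, and its other probe was not kept, since it passed the detection flag in 1 hybridization for cl-sh3 and in 0 for control. BCL2L2 gave -0.01 and 0.42. BCL2 was thus the only one of the 5 pro-survival members whose representing probe lay beyond the technical spread, and MCL1 was the lowest.

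The 3 effectors, which form the pores of the outer mitochondrial membrane, were all higher in cl-sh3 in both hybridizations, beside 30.9% of all genes. BAX gave signals of 10161 in cl-sh3 and 6373 in control in hybridization 1, and of 12742 and 6763 in hybridization 2, which are ratios of 0.67 and 0.91 and a mean of 1.73-fold. Its second probe, designed on another transcript variant, gave 4391 and 2885, then 4089 and 2224, with ratios of 0.61 and 0.88. On both probes of BAX, both cl-sh3 signals exceeded both control signals, and the means of the 2 probes differed by 0.05. BOK gave 0.33 and 0.27, and BAK1 gave 0.11 and 0.19, both with means inside the technical spread. With the software's and the deposited ratios, BAK1 was -0.01 in hybridization 1, so its sign there depended on the processing.

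The BH3-only genes, the sensors that start the mitochondrial pathway, held both the lowest and the highest mean ratio among the representing probes. Of 8 genes, 3 were higher in both hybridizations, 3 were lower and 2 had opposite signs, with a median of 0.08. Lower ratios in both hybridizations were found for 28.4% of all genes, higher ratios for 30.9%, and opposite signs for 6569 of 16153. PMAIP1 (NOXA), which neutralizes MCL1, gave signals of 5097 in cl-sh3 and 13328 in control in hybridization 1, and of 5867 and 11664 in hybridization 2. Its ratios were -1.39 and -0.99, a mean of 2.28-fold lower. Both cl-sh3 signals lay below both control signals, and hybridization 2 stopped just short of 2-fold.

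BMF, which is held at the cytoskeleton in healthy cells, gave 1158 in cl-sh3 and 2646 in control, then 1462 and 2197, with ratios of -1.19 and -0.59. BCL2L11 (BIM), which binds all pro-survival members, gave 1417 and 2476, then 1627 and 2314, with ratios of -0.81 and -0.51 on its brightest probe. In both genes the cl-sh3 signals lay below the control signals. The other 3 probes of BCL2L11, all of the same accession, had mean ratios of 0.03, -0.07 and -0.15, and on 2 of them the control was well above background in 1 hybridization. The lower value of BCL2L11 therefore rests on 1 of its 4 probes.

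BBC3 (PUMA), a BH3-only protein known as a p53 target, had the highest mean ratio of the representing probes and also the widest gap between probes. Its 3 probes carry the same accession. The brightest gave 60926 in cl-sh3 and 30180 in control, then 50795 and 28834, with ratios of 1.01 and 0.82. The next gave 3497 and 7565, then 3537 and 6026, with ratios of -1.11 and -0.77. The dimmest gave 0.02 and 0.13. For BBC3 the direction thus depended on the probe, each probe repeated its own value under the reversed dyes, and the mean of the 3 probes was 0.02. BBC3 was the only one of the 16 members with several kept probes whose probe means lay more than 1 log2 unit apart, a gap found for 1.28% of 5565 genes with several probes. Which of the probes follows the BBC3 mRNA was not tested.

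The remaining BH3-only genes lay inside the technical spread. BIK gave 0.27 and 0.28, BAD gave 0.19 and 0.09, BID gave -0.03 and 0.28, and HRK gave -0.02 and 0.09. The plot of probes of the same gene shows how BBC3 and BCL2L1 differ from BAX and CASP4, whose probes coincide.

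**Figure D2:**
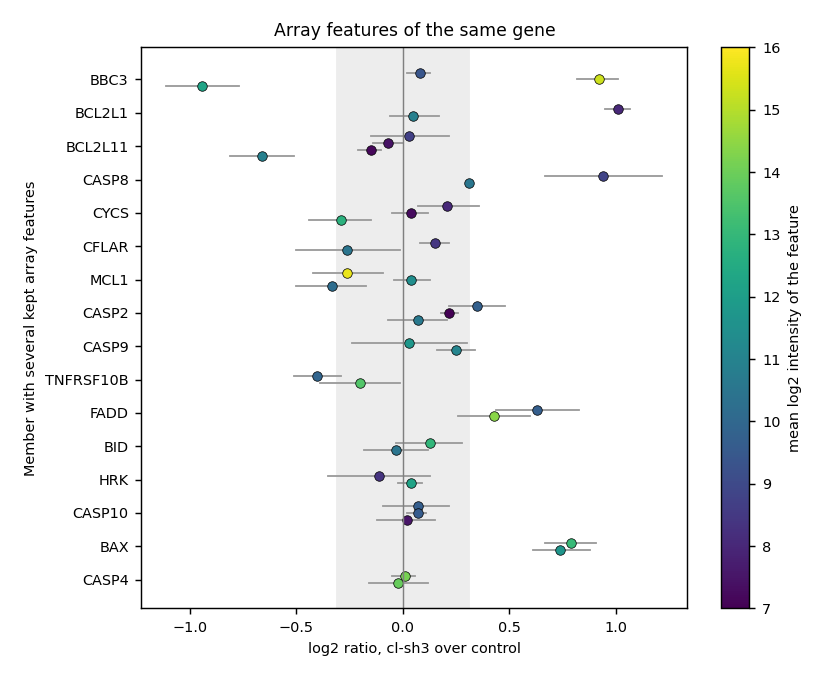
The mean log2 ratio of cl-sh3 over control (x axis) of each kept probe of the 16 members with several kept probes (y axis, ordered by the gap between probes). Points are coloured by the mean log2 intensity of the probe, grey lines join the 2 hybridizations and the grey band spans 0.31 either side of 0. The probes of BBC3 span 1.86 log2 units and those of BAX 0.05.

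Downstream of the pore, the genes of the apoptosome and of factors released from mitochondria had a median of -0.11 over 4 members, none of them beyond the technical spread. APAF1, the scaffold of the apoptosome, gave 0.08 and 0.27 and was the highest of the 4. CYCS, which encodes cytochrome c, gave -0.15 and -0.44 on its brightest probe and was the lowest, while its dimmer probes gave 0.07 and 0.36, and -0.05 and 0.12. DIABLO (SMAC) and HTRA2, both antagonists of IAPs, gave -0.39 and -0.06, and -0.14 and 0.17.

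The 5 apoptotic caspases on the list had a median of 0.07. Of them, 4 changed sign between the hybridizations, as did 6569 of the 16153 named genes. CASP8, the initiator caspase of death receptors, gave 1680 in cl-sh3 and 1337 in control, then 1650 and 1340, with ratios of 0.33 and 0.30 on its brighter probe. Its dimmer probe, of the same accession, gave 565.4 and 356, then 686.9 and 294.3, with ratios of 0.67 and 1.22. CASP8 was higher in cl-sh3 on both probes and in both hybridizations, with means of 0.31 and 0.94 that differed by more than the technical spread.

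CASP6, an executioner caspase, was the lowest of the group at -0.48 and 0.06. CASP9, the caspase of the apoptosome, gave -0.24 and 0.30, and 0.34 and 0.16 on its other probe. CASP2 gave 0.21 and -0.07 on its brightest probe, with means of 0.35 and 0.22 on the others, and CASP10, a relative of CASP8, gave -0.09 and 0.22. None of these had a direction that held in both hybridizations on the brightest probe. CASP1 and CASP4, the inflammatory caspases, gave -0.14 and -0.11, and -0.05 and 0.06.

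The IAPs went in opposite directions. BIRC2 (cIAP1) gave signals of 4853 in cl-sh3 and 9813 in control in hybridization 1, and of 7230 and 9966 in hybridization 2, with ratios of -1.02 and -0.46. BIRC3 (cIAP2) gave 3267 and 2460, then 4160 and 2050, with ratios of 0.41 and 1.02. Both are ubiquitin ligases bound to TNF receptor complexes, and BIRC3 and BIRC2 are neighbours on chromosome 11 with 0 protein-coding genes between them in RefSeq. For both genes the cl-sh3 signals did not overlap the control signals, beside 21.8% of all genes with cl-sh3 above and 22.4% below. For both genes the log2 ratio of the hybridization with the larger difference was more than 2 times that of the other. XIAP, which inhibits caspases directly, gave 0.03 and 0.29.

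**Figure D3:**
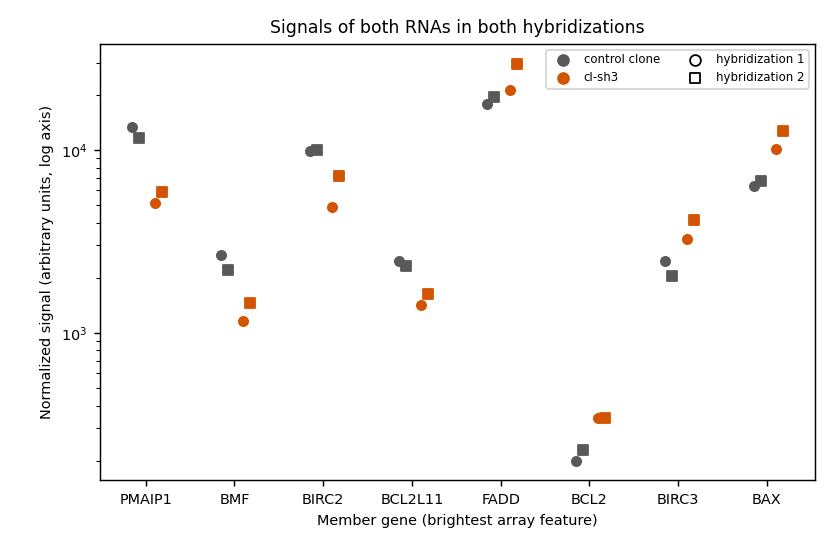
Normalized signals (y axis, arbitrary units, log axis) of the brightest probe of 8 members (x axis) in control (grey) and cl-sh3 (orange), with circles for hybridization 1 and squares for hybridization 2. The 8 were chosen from the members beyond the technical spread, after their values were seen, and BBC3 and CASP8 of those members are not shown. That choice makes an overlap of signals unlikely. Over all genes, both cl-sh3 signals were above both control signals for 21.8% and below for 22.4%. The 2 control and 2 cl-sh3 signals do not overlap for any of them, with cl-sh3 below control for PMAIP1, BMF, BIRC2 and BCL2L11 and above it for FADD, BCL2, BIRC3 and BAX. Signals are to be compared within a gene only.

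None of the 4 death receptors and ligands was beyond the technical spread, and their median was -0.22. TNFSF10, which encodes TRAIL, gave -0.06 and -0.48 and was the lowest. FAS gave -0.19 and -0.28, and TNFRSF10B (DR5) gave -0.01 and -0.39 on its brighter probe and -0.51 and -0.29 on the other. TNFRSF10A (DR4), the highest of the group, gave -0.21 and 0.37. FAS was below 0 in both hybridizations, and so were TNFSF10 and TNFRSF10B, beside 28.4% of all genes. In hybridization 1, median centring turned TNFRSF10B to 0.11 and TNFSF10 to 0.00, and a normexp offset of 0 put TNFRSF10B at 0.00. TNFRSF10D, a decoy receptor for TRAIL, gave -0.07 and -0.09.

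FADD, the adaptor that joins death receptors to caspase-8, gave signals of 21271 in cl-sh3 and 17766 in control, then 29654 and 19497, with ratios of 0.26 and 0.60. Its dimmer probe gave 969.8 and 717.1, then 1097 and 617.9, with ratios of 0.44 and 0.83. FADD was thus higher in cl-sh3 on both probes, by means of 1.35-fold and 1.55-fold. TRADD, the adaptor of TNF receptor 1, gave 0.01 and -0.10, and RIPK1, the kinase of the same complex, gave -0.39 and 0.23. CFLAR (c-FLIP), which blocks caspase-8 at the receptor, gave -0.50 and -0.01 on its brighter probe and 0.22 and 0.08 on the other. CFLAR, CASP10 and CASP8 follow each other on chromosome 2 with 0 protein-coding genes between them, and of the 3 only CASP8 kept a sign above 0 on all its probes in both hybridizations.

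Set side by side, the members that promote death and those that oppose it had close medians. The 26 promoting members had a median of 0.05 (-0.02 in hybridization 1 and 0.13 in hybridization 2), with 9 higher in both hybridizations, 8 lower and 9 of opposite signs. The 10 opposing members had a median of -0.01 (-0.04 and -0.02), with 3 higher, 5 lower and 2 of opposite signs. Among all genes, 30.9% had ratios above 0 in both hybridizations and 28.4% had ratios below 0, close to the shares of the promoting members. Of the 10 opposing members, the 3 higher were near the first share and the 5 lower were above the second. The set is small, and the signs of CFLAR and BCL2A1 rest on -0.01 and -0.03 in hybridization 2. The difference of the medians was 0.06, or 0.02 in hybridization 1 and 0.15 in hybridization 2, and it was -0.02 when all probes of a gene were averaged. All 39 members had a median of 0.03 and ranged from -1.19 to 0.92, beside a median of 0.01 over all genes. Beyond the technical spread, 4 promoting members were higher (BAX, BBC3, CASP8 and FADD) and 3 were lower (PMAIP1, BMF and BCL2L11), while 2 opposing members were higher (BCL2 and BIRC3) and 1 was lower (BIRC2). Members of both roles were thus found on both sides.

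**Figure D4:**
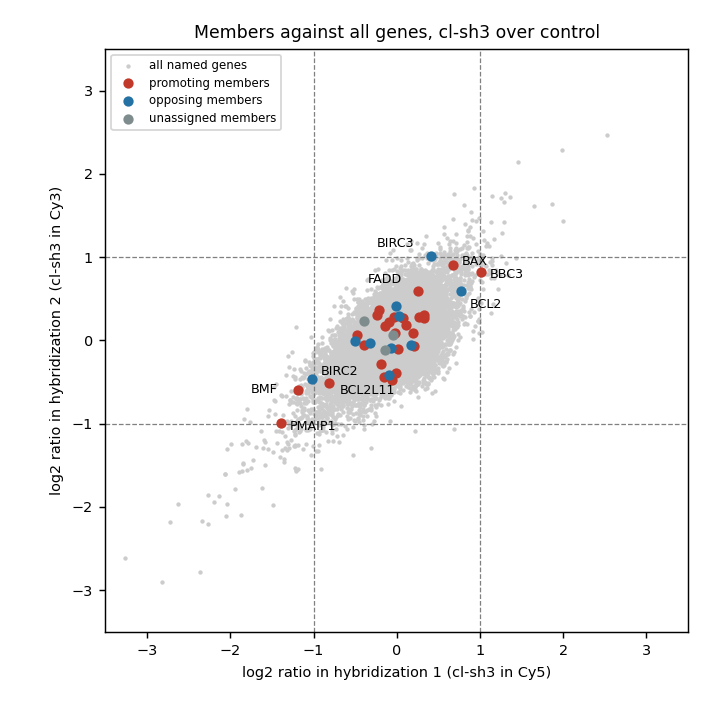
The log2 ratio of cl-sh3 over control in hybridization 1 (x axis) against hybridization 2 (y axis) for all 16153 named genes (grey) and for promoting (red), opposing (blue) and unassigned (dark grey) members, with dashed lines at a 2-fold difference. No member lies beyond a 2-fold difference on both axes, and PMAIP1 comes nearest, at -1.39 and -0.99.

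Several members are known targets of transcription factors that were themselves measured. ATF4, a factor of the amino acid and unfolded protein responses, gave -1.54 and -1.30 on its brightest probe and -0.93 and -0.62 on the other. DDIT3 (CHOP), which acts with it, gave -2.19 and -1.94, and TRIB3, a target of both, gave -3.27 and -2.62. All 3 were lower in cl-sh3. Of the 4 members known as ATF4 or CHOP targets, PMAIP1, BCL2L11 and TNFRSF10B were lower in both hybridizations and BBC3 was higher on its brightest probe, with a median of -0.43, beside 28.4% of all genes lower and 30.9% higher in both. The sign of TNFRSF10B rests on -0.01 in hybridization 1. For BBC3, BCL2L11 and TNFRSF10B the probes differ as given above. A part of ATF4 or DDIT3 in these values was not tested.

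The 7 members known as p53 targets (BAX, BBC3, PMAIP1, FAS, TNFRSF10B, APAF1 and BID) had a median of 0.13, with 3 higher in both hybridizations, 3 lower (TNFRSF10B among them) and 1 of opposite signs. The 6 members known as NF-kappaB targets (BIRC3, BIRC2, BCL2A1, CFLAR, BCL2L1 and FAS) had a median of -0.20, with 1 higher, 4 lower and 1 of opposite signs. Among all genes, 30.9% had ratios above 0 in both hybridizations and 28.4% had ratios below 0. Both lists held members on either side of 0.

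A wider list of the machinery was also measured. Of 43 other apoptosis genes, 40 were measured, with a median of 0.05, and none differed at least 2-fold in both hybridizations. BIRC7 (livin), a further IAP, was the only gene of this list at least 1.5-fold higher, with ratios of 0.89 and 0.69 from signals of 1401 in cl-sh3 and 757.4 in control, then 1348 and 837.6. Both cl-sh3 signals of BIRC7 were above both control signals, beside 21.8% of all genes. BCL2L12, BIRC7, ENDOG, FAIM and TNF were above the technical spread (5 of 40), beside 10.3% of all genes, and TNFRSF25 (DR3), a death receptor, was below it (1 of 40), beside 13% of all genes. TNFRSF25 gave ratios of -0.60 and -0.25.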

How the data were processed

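Both arrays compared cl-sh3, the clone with RUNX2 knockdown, with the mock-transfected control clone, using the same RNAs with the dyes exchanged. The authors deposited raw spot intensities with local backgrounds, outlier flags and a detection flag, as read by Feature Extraction, version 10.5.1.1 per the file headers and 8.5.1.1 per the submitters' processing notes. They also deposited tables of log10 ratios, which equal the log10 ratio of the software (Cy5 over Cy3) to within 0.005. Background correction used limma 3.58.1 (R 4.3.3), by normexp with an offset of 50 on median signals and median local backgrounds. The offset makes the differences of dim probes smaller. Control spots were then removed, 153 and 144 flagged spots were left out, loess was applied within arrays, and replicate spots were averaged per probe. No spot was saturated.

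A probe was kept (36060 of 41000) when the flag held on at least 50% of the spots of at least 1 RNA in both hybridizations. Of the 63 member probes 62 were kept, and on 7 of them an RNA was dim in 1 hybridization. Signals of each RNA are after loess and Aquantile scaling. RefSeq accessions were named through a table of GRCh38.p14 that held 18023 of 19228, and the main RUNX2 accession through the name the study gives it. No coordinates of that assembly were given for probes, since the arrays were annotated on another build. With 2 arrays of 1 pair of RNAs, the precision is limited by the number of arrays, and the error shown is technical.

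The members and lists were chosen with earlier results of these data known. The text gives in both hybridizations the members at least 1.5-fold changed on any kept probe, those whose probes differ by over 1 log2 unit, the highest and lowest of each role, the members the study lists, RUNX2, ATF4, DDIT3, TRIB3 and genes of the wider list at least 1.5-fold changed. The technical spread, TNFRSF25, the signals shown, and the sequences shown with their marked motifs were chosen after values were seen. An item of the wider list is not reported here. The normalization and the 2-fold rule were tested on simulated data. The alternatives were other background corrections, median centring, flagged spots kept, other detection filters, the software's and the deposited ratios, the mean of all probes, single hybridizations, a call rule on their mean, and the 3 unassigned members counted as promoting. Tables and plots were made with pandas 2.3.3, numpy 2.4.6 and matplotlib 3.10.9 in Python 3.11.15.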

Additional observations from a re-analysis of the deposited data

How the results depend on the processing

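The count of members at least 2-fold different in both hybridizations was 0, and became 1 (PMAIP1) with a normexp offset of 0, with the scanner software's log ratios, with the deposited table, and when the mean of both hybridizations had to pass. With a single hybridization it ranged from 1 (BIRC3, hybridization 2) to 4 (BBC3, BIRC2, BMF and PMAIP1, hybridization 1). The dimmer BCL2L1 probe does not represent its gene in these counts. It was at least 2-fold higher in both hybridizations with an offset of 0 and with the software's and the deposited ratios. The count at least 1.5-fold higher (3) was 2 without background correction and with the mean of all probes, 4 with the software's and the deposited ratios and with the mean of both hybridizations, and 3 to 5 with a single hybridization, the 5 in hybridization 2 with BIRC3 and FADD added. The count at least 1.5-fold lower (2) was 3 with the software's and the deposited ratios, 1 without background correction and with median centring, where BMF missed the threshold in hybridization 2, 4 when the mean of both had to pass, and 2 to 4 with a single hybridization. The median of the opposing members turned from -0.01 to 0.03 without background correction, 0.01 with median centring and 0.05 with the mean of all probes, and lay between -0.04 and -0.02 with a single hybridization. The median of the promoting members lay between -0.02 and 0.13 with a single hybridization, and the difference of the medians between 0.02 and 0.15. The cause of these shifts was not tested. Of 77 values of BAX, BBC3, BCL2, BCL2L1, BMF, CASP8 and PMAIP1 under alternatives, 73 kept their side of the rule of 1.5-fold in both hybridizations, and the exceptions, with their means, were BCL2 (0.56) and BMF (-0.85) without background correction, BMF with median centring (-0.84), and BBC3 with the mean of all probes (0.02). Part of this count was fixed in advance. For these genes the other detection filters returned the main values, and the deposited ratios repeated those of the software. A gene past the rule in both hybridizations also passes it in each alone. No paired analysis was possible because the 2 hybridizations are a dye swap of 1 pair of RNAs. Dim probes such as those of BCL2 and of BCL2L1 variant NM_001191 limit the size that can be given.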
